A study of Mus with 4 samples.

Results

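Zinc finger proteins fold short loops of their chain around zinc ions, and in most of them arrays of such loops read DNA. In the mouse many carry names that begin with Zfp, and a large share of these are KRAB zinc finger proteins, which bring the corepressor TRIM28 and histone methyltransferases to chromatin and keep retroelements silent. Other members bind RNA, modify proteins with ubiquitin or SUMO, or act as cofactors in neural and eye development. A circular RNA (circRNA) is made by back-splicing, in which the end of an exon is joined to the start of the same or an earlier exon, and each read over the joint counts as a junction read. A circle reports on back-splicing and stability of the transcript of its host gene, and says nothing directly about the protein.

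The Zfp set was chosen by name alone: every circRNA assigned to a single host gene whose symbol is Zfp directly followed by a digit, with Zfp292, Zfp609 and Zfp532 left out. It held 436 of the 44073 circRNAs in the tables and 113 of the 7146 host genes, of which 111 are protein coding. The study sequenced circRNAs of ocular tissue of the C57BL/6J strain, either wild type or carrying a VLDLR deletion, VLDLR being a receptor for very-low-density lipoprotein and Reelin. All pups, the wild-type controls included, had been kept in 75% oxygen from postnatal day 7 to 12, and tissue was taken at the end of the exposure (P12) or at P13 after return to air. Each of the 4 groups (wild type and deletion, each at P12 and P13) held 1 library. The number of animals behind each library, and the way the deletion was made, are unstated in the labels.

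With 1 library a group there was no comparison within a group. Sequencing run and genotype cannot be told apart, since the wild-type and deletion libraries shared 0 instrument runs, and age and time in air cannot be told apart between the days. Total junction reads were 662811 and 759063 in the wild-type and 299723 and 341873 in the deletion libraries. The targeted gene gave no check of the labels, since Vldlr circRNAs had 0 reads in every library. Of 25 photoreceptor markers 16 gave circRNAs, and their summed level was 7043 and 8247 CPM in wild type against 10435 and 10395 in the deletion libraries. Of 14 tested photoreceptor hosts 4 rose (28.6%) and 0 fell, against 7.46% and 6.57% of all hosts tested. Under the authors' own scaling (SRPBM) 0 of the 14 rose and 10 fell. Not every marker rose: Rp1 had 26 and 23 reads in wild type against 2 and 2. The summed level of 11 bipolar cell markers (8 with circRNAs) was 763 and 729 CPM in wild type against 1143 and 806. Of 5 tested bipolar cell hosts 2 rose (Trpm1 and Lrit3) and 0 fell, and under SRPBM 0 rose and 4 fell. Here too not every marker rose: Grm6 had 30 and 21 reads in wild type against 4 and 8, and Otx2 89 and 92 against 29 and 17. The summed level of 21 lens markers (15 with circRNAs, Mip and Lim2 at 0) was 899 and 1134 CPM against 2766 and 2075, and without Bfsp1, a lens filament protein, 386 and 650 against 333 and 235. Of 4 tested lens hosts Bfsp1 rose (320 and 344 reads against 658 and 564), and Cryga and Prox1 fell (log2 -2.79 and -0.69). Cryga (45 and 158 reads against 4 and 8) passed the filter of at least 10 reads in at least 2 libraries through wild type alone. Prox1 did not pass by DESeq2 (adjusted p 0.369). Gnat1 and Nrl were at 0 in every library, and the part of these shifts in the Zfp results was not tested. In such bulk tissue, fewer cells of a type and less RNA per cell cannot be told apart.

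Zfp genes gave circles about as often as other genes did. Among 394 protein-coding Zfp genes known to RefSeq, 111 (28.2%) had a circRNA, against 7040 of 21896 (32.2%) for all protein-coding genes. Zfp circRNAs took 1.63% of junction reads in the P12 wild-type library (1.60% to 1.66%, a 95% exact binomial interval), 1.49% in wild type at P13 (1.46% to 1.52%), 1.37% with the deletion at P12 (1.33% to 1.41%) and 1.35% with the deletion at P13 (1.31% to 1.39%). These intervals, like all below, cover counting error only. The wild-type P12 share was thus the highest, and the deletion libraries overlapped each other.

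Most of the Zfp circle output came from few genes. The 4 most abundant hosts held 52.7% and the 12 most abundant 81.5% of 30843 Zfp reads, while 51 hosts had fewer than 20 reads over the 4 libraries and 51 had a single circRNA. The median Zfp host had 2 circRNAs, against 3 for all hosts, and 14 hosts had 10 or more. Many Zfp genes are close copies of each other, and the sources used here do not give how reads that match several copies were assigned, so that small counts of hosts in gene clusters are uncertain. Chromosome 7 carried 26 of the hosts, chromosome 9 carried 12 and chromosome 17 carried 11.

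Levels below are junction reads scaled by the effective library size, as CPM. They are not divided by a length, since each circRNA has a single junction. Zfp827, which in human cells brings the NuRD chromatin remodeller to telomeres, had 2696 and 2495 in wild type (P12, then P13) against 2533 and 2209 with the deletion. Zfp385b, with fingers of a type that binds double-stranded RNA, had 2791, 2621, 2012 and 2173 in the same order of libraries. These were the most abundant hosts. Zfp385b had more reads than Zfp827 in the wild-type libraries (1741 and 1866 against 1682 and 1776) and fewer in the deletion libraries (544 and 666 against 685 and 677). The margins were small in every library but deletion P12, so that no change of order with genotype is shown.

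Zfp148, a factor that binds GC-rich promoters, had 1734, 1673, 1756 and 1912 CPM. Zfp644, a partner of histone methyltransferases that is mutated in some human families with high myopia, had 1931, 1697, 1435 and 1589. The deletion libraries were both lower than the wild-type libraries for Zfp644 and both higher for Zfp148, by small margins. Further hosts among the 12 were Zfp236 (720, 641, 688 and 656) and Zfp462, a heterochromatin regulator of neural development (704, 673, 558 and 574). Zfp512 (256, 284, 373 and 326) and Zfp280d (247, 280, 174 and 186) closed the list, together with Zfp516, Zfp536, Zfp638 and Zfp426, which are described with the genotype.

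**Figure D1:**
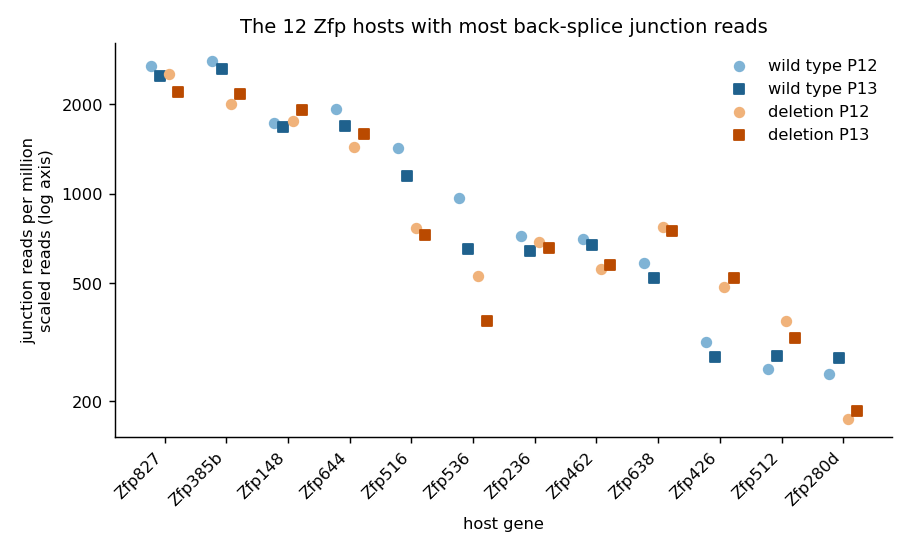
CPM (log axis) of the 12 Zfp hosts with most reads; each point is 1 library (light blue circles wild type P12, dark blue squares wild type P13, light orange circles deletion P12, dark orange squares deletion P13), with no error bars because each group held 1 library. Zfp516, Zfp536, Zfp385b, Zfp644, Zfp462 and Zfp280d stand lower in both deletion libraries than in both wild-type libraries. Zfp638, Zfp426, Zfp512 and Zfp148 stand higher, and Zfp827 and Zfp236 overlap. The share of all hosts with such a separation is not given here.

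In the VLDLR deletion libraries, circRNAs of Zfp516, Zfp536 and Zfp385b fell and those of Zfp426, Zfp62, Zfp638 and Zfp790 rose relative to the median host. The test was edgeR's quasi-likelihood test on reads summed per host over all 4 libraries, with genotype and day as additive terms and Benjamini-Hochberg adjustment over 3899 hosts. Of 113 Zfp hosts, 52 had at least 10 reads in at least 2 libraries and were tested, and these held 97.8% of Zfp reads. Of the 52, 4 rose (7.69%) and 3 fell (5.77%), against 7.46% and 6.57% of all hosts tested, a share close to the background in both directions. The median log2 fold change of the 52 was 0.08, and that of all hosts tested -0.05. At an unadjusted p under 0.05, 5 were higher and 8 lower, against 466 and 494 of all 3899. Among these 8, Zfp398 (13, 10, 0 and 0 reads) and Zfp507 (12, 27, 0 and 3) passed the read filter through wild type alone. DESeq2 called 1 and 3 (114 and 72 of all 3899), all 4 of these Zfp hosts among the 7 edgeR calls. With each library left out in turn the counts of calls changed, and the matching counts over all hosts are not given here. The model left 1 degree of freedom, and its p-values reflect only residual spread among these libraries, which may be technical. Under the authors' own scaling (SRPBM) the median host was at -1.57 and the split turned to 0 higher and 35 lower of the 52 (7 and 2975 of all 3899), with a Zfp median of -1.43, so that every rise named here is a rise relative to the median host.

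Zfp516, an activator of the brown fat programme, had the lowest adjusted p of the Zfp hosts. Its levels were 1425 and 1143 CPM in wild type (P12, then P13) against 769 and 724 with the deletion, with no overlap between the genotypes. The log2 fold change was -0.77 ± 0.13 (SE; adjusted p 4.19e-07, edgeR's quasi-likelihood test), and it passed with each library left out in turn.

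Zfp536, a repressor of neuronal differentiation enriched in brain, had 970 and 650 in wild type against 529 and 372 in the deletion libraries. The P13 library was lower than the P12 library in both genotypes, so that wild type P13 and deletion P12 were the nearest pair. The log2 fold change between genotypes was -0.84 ± 0.16 (adjusted p 5.39e-06, edgeR's quasi-likelihood test), and without wild type P12 it was -0.57 and did not pass (adjusted p 0.114). For Zfp385b it was -0.37 ± 0.11 (0.00761), and it did not pass without wild type P12 (adjusted p 0.0776) or without deletion P12 (0.107).

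Among the hosts that rose, Zfp426 had 317 and 281 CPM in wild type against 484 and 519 in the deletion libraries. Its log2 fold change was 0.75 ± 0.19 (adjusted p 0.00103 by edgeR's quasi-likelihood test and 0.0499 by DESeq2), and it did not pass without wild type P13 (0.127). On the SRPBM scale Zfp426 was called lower instead (-0.77, adjusted p 0.00445). Zfp638, a nuclear RNA- and DNA-binding protein that takes part in silencing unintegrated retroviral DNA, had 585 and 521 against 773 and 747. The genotypes did not overlap, the log2 fold change was 0.46 ± 0.15 (adjusted p 0.0227 by edgeR's quasi-likelihood test, 0.158 by DESeq2), and on the SRPBM scale it was called lower (-1.06, 0.000354). Zfp638 did not pass without wild type P12 (0.143), wild type P13 (0.403) or deletion P12 (0.0797).

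Zfp62 and Zfp790 rose from few reads. Zfp62 had 41 and 65 reads in wild type against 36 and 66 in the smaller deletion libraries, which is 65.7 and 91.3 against 133 and 215 CPM (log2 1.14 ± 0.32, adjusted p 0.00543 by edgeR's quasi-likelihood test). Zfp790 had 42 and 35 reads against 46 and 29, or 67.3 and 49.2 against 170 and 94.6 CPM (1.15 ± 0.38, adjusted p 0.025). Neither passed by DESeq2 (adjusted p 0.128 and 0.197), and both were below wild type on the SRPBM scale without passing (-0.39 and -0.36). Zfp62 did not pass without wild type P12 (adjusted p 0.112) or deletion P13 (0.197), nor did Zfp790 without wild type P13 (0.209) or deletion P12 (0.335).

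**Figure D2:**
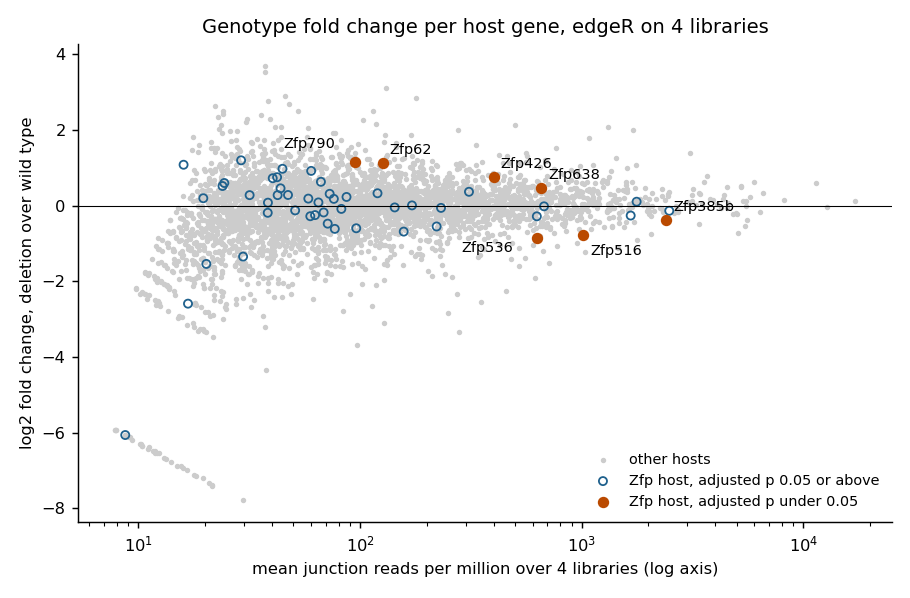
Log2 fold change of the deletion over wild type per host gene (vertical axis) against its mean CPM (log axis), from edgeR on 4 libraries; grey points are other hosts, open blue circles the Zfp hosts that did not pass and filled orange circles the 7 that passed. Of the 7, Zfp516, Zfp536 and Zfp385b lie below 0 and Zfp426, Zfp62, Zfp638 and Zfp790 above it.

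By role, the genes known for neural development and chromatin gave 13 tested hosts of 24 listed, of which 0 rose, 2 fell (Zfp516 and Zfp536) and 11 did not pass. The 2 are 15.4% of the 13, against 6.57% of all hosts tested, and a count this small says little about the list. Their median log2 fold change was -0.12. At an unadjusted edgeR p under 0.05 1 was higher and 3 lower (466 and 494 of all 3899 hosts), while DESeq2 called 0 and 2 (114 and 72 of all). RNA-binding proteins and ubiquitin or SUMO ligases gave 7 tested of 18, with 1 up (Zfp638), 1 down (Zfp385b), 5 not passing and a median of 0.19 (7.46% and 6.57% of all hosts rose and fell). Zfp207, a spindle protein, had 109, 119, 41 and 59 reads and a log2 fold change of 0.01, and Zfp326, a subunit of a complex that couples splicing to elongation, had 62, 79, 26 and 53 reads (0.33, adjusted p 0.591 by edgeR's quasi-likelihood test). Of 5 genes linked to eye disease, Zfp644 and Zfp423 were tested and neither passed (edgeR log2 -0.26 and 0.92, adjusted p 0.124 and 0.189). At an unadjusted p under 0.05 they were 1 lower and 1 higher, and DESeq2 called 0.

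KRAB proteins known to guard imprints or silence retroelements were represented by 7 listed genes, of which 3 had any circRNA and 2 were tested. Neither passed edgeR's test or DESeq2, with 0 at an unadjusted p under 0.05. Zfp445, which protects imprinted methylation, had 27, 24, 11 and 16 reads (log2 0.28, adjusted p 0.815 by edgeR's quasi-likelihood test). Zfp568, which represses a placental Igf2 transcript, had 7, 17, 14 and 9 (1.20, adjusted p 0.409). Of 21 genes for the repression machinery that KRAB proteins recruit, among them Trim28 and Setdb1, 15 had circRNAs and 9 were tested. None of the 9 passed edgeR's test or DESeq2, with 0 higher and 1 lower at an unadjusted p under 0.05 and a median log2 fold change of -0.18. Under SRPBM scaling all 9 were called lower, as were 10 of the 13 neural and chromatin hosts and 6 of the 7 RNA-binding and ligase hosts, against 76.3% of all hosts.

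Among other zinc finger families, the C2H2 genes were called in both directions, and the few calls among genes with CCCH fingers were falls. Of 40 tested hosts with other C2H2 names (such as Zbtb, Prdm, Zeb and Hivep) 6 rose (15%) and 4 fell (10%), against 7.46% and 6.57% of all hosts tested, and DESeq2 called 1 and 0. Zfat went from 211 and 312 reads to 176 and 200 (log2 0.75, adjusted p 1.61e-04 by edgeR's quasi-likelihood test). Zbtb48, a telomere-binding protein, went from 8 and 11 to 37 and 14 (2.51, 4.75e-04), and Sp3, a factor of GC boxes, from 375 and 364 to 95 and 100 (-0.71, 0.00132). Of 15 tested genes with CCCH fingers, an RNA-binding type, 0 rose and 3 fell (20%, against 6.57% of all hosts). At an unadjusted edgeR p under 0.05 1 was higher and 4 lower (466 and 494 of all 3899 hosts), and DESeq2 called 0 and 2 (114 and 72 of all). The 3 that fell by edgeR were Zc3h14, a poly(A)-binding protein (435 and 418 reads against 76 and 112), the splicing regulator Mbnl2 (304 and 320 against 57 and 91) and Rc3h1, which promotes mRNA decay (46 and 34 against 5 and 4). Rc3h1, and Zbtb7a among the C2H2 falls (64 and 26 against 4 and 3), passed the read filter through wild type alone. A count of 3 says little about the family. Under SRPBM scaling 0 rose in either family and 31 and 11 fell (77.5% and 73.3%, against 76.3% of all hosts).

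The day had no host-level call among the Zfp genes. In edgeR's quasi-likelihood test of P13 against P12, 0 of 52 rose and 0 fell, against 0.0256% and 0.0769% of all hosts tested, and DESeq2 called 0 and 0. At an unadjusted p under 0.05 there were 0 higher and 1 lower, against 91 and 93 of all 3899 hosts. The 1 was Zfp536, named after its value was seen, with a log2 change of -0.55 and an adjusted p of 0.221 by edgeR's quasi-likelihood test. The median over the 52 was -0.04.

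In pairs of single libraries, a host was called where the ratio of scaled reads was at least 2 or at most 0.5 and its 95% exact conditional interval excluded 1, given at least 20 reads over the pair. These calls compare 2 libraries and carry no p-value. At P12 5 of 50 Zfp hosts were called higher in the deletion library (7.37% of all hosts) and 2 lower (10.1%). At P13 these counts were 3 and 2 of 48, against 6.66% and 8.92%. The higher ones at P12 were Zfp78 (7 reads against 16, a ratio of 5.27 with interval 2.05 to 15.2), Zfp568 (4.61, 1.74 to 13.5), Zfp142 (2.99, 1.51 to 5.99), Zfp790 (2.53, 1.63 to 3.93) and Zfp62 (2.03, 1.26 to 3.25). Zfp560 was lower (40 reads against 3, ratio 0.173, interval 0.0342 to 0.543).

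At P13 Zfp62 was called again (2.36, interval 1.65 to 3.37), with Zfp423, a cofactor of neural and fat cell development (2.03, 1.08 to 3.81), and Zfp804b (3.10, 1.61 to 6.06). Zfp451, a SUMO ligase, was lower at 109 reads against 18 (0.384, 0.219 to 0.635), and so was Zfp507 at 27 against 3 (0.258, 0.0501 to 0.839). Zfp804b, however, had 31 reads in wild type P12 and 0 listed in deletion P12. It was 4.48-fold lower if 3 reads are taken as the floor of a library, and the 95% interval of the ratio ended at 0.292. Its 6 circRNAs are each listed only from 2 reads, so unlisted reads could exceed that floor. Of 45 Zfp hosts with enough reads at both days, 12 were below 1 at both, 17 above 1 at both and 16 on opposite sides. Zfp62 was the host called in the same direction at both days. The matching counts over all hosts were not computed, so these counts show nothing particular to Zfp genes.

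**Figure D3:**
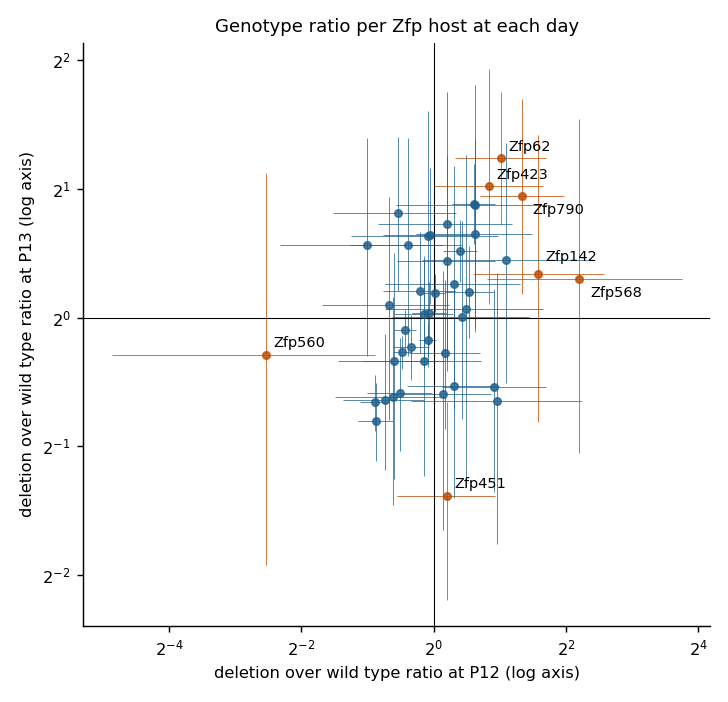
Ratio of scaled reads, deletion over wild type, at P12 (horizontal) and at P13 (vertical), both log axes, for the 44 Zfp hosts with at least 20 reads in each pair and reads in every library; bars are 95% exact conditional intervals and orange marks hosts called at either day. Zfp62 lies near 2 on both axes, while Zfp451 lies near 1 at P12 and at 0.384 at P13.

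Between the days few Zfp hosts passed the 2-fold limit. In wild type, P13 had 1 of 52 called higher, Zfp418 (13 reads against 40, ratio 2.70, interval 1.41 to 5.49), and 1 lower, Zfp560 (40 against 17, 0.372, 0.198 to 0.672), against 3.65% and 3.69% of all hosts. In the deletion 2 of 45 were higher and 2 lower at P13, against 3.73% and 3.66%. Zfp955a went from 14 to 43 reads (2.71, 1.45 to 5.36) and Zfp804b from 0 to 24 (7.06-fold against 3 reads, with a lower interval limit of 5.31). Zfp984 went from 25 to 12 (0.424, 0.194 to 0.875) and Zfp78 from 16 to 5 (0.276, 0.0790 to 0.788). These rest on few reads in a single library each.

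Summed over all members, Zfp reads in deletion P12 were 0.873 times those of wild type P12 (95% interval 0.842 to 0.906), and in deletion P13 0.950 times those of wild type P13 (0.918 to 0.983). The ratio of P13 to P12 was 0.914 in wild type (0.890 to 0.938) and 0.994 in the deletion (0.953 to 1.04). On the SRPBM scale the genotype ratios were 0.326 and 0.309, and the wild-type day ratio turned to 1.05. With only the circRNAs listed in all 4 libraries the ratio at P13 was 0.977, with an interval of 0.943 to 1.01.

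As structures, Zfp circles were shorter in genomic span than circRNAs at large and more often intronic. The median distance between the joined positions was 7426 bases (quartiles 3089 and 18511), against 10995 (4410 and 24960) for all circRNAs. Of the 436, 373 (85.6%) were of the exon class and 63 (14.4%) of the intron class, against 86.5% and 8.01% of all, and the intronic ones held 4.12% of Zfp reads. The set of all circRNAs includes intergenic ones, which the Zfp rule leaves out, so that the exon shares are not of like sets. In 358 (82.1%) the start or end was shared with another circRNA of the same host, against 82.8% of all circRNAs with a host. All 4 libraries listed 132 Zfp circRNAs (30.3%, against 25.2% of all circRNAs), which held 91.2% of Zfp reads. A further 178 (40.8%) were listed in wild type only and 47 (10.8%) in the smaller deletion libraries only, close to the 42.3% and 10.7% of all circRNAs.

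Single circles were tested with the same edgeR model over 8785 circRNAs, 119 of them from Zfp hosts. Of the 119, 5 rose (4.20%) and 6 fell (5.04%), against 5.03% and 3.59% of all. Among the falls, the Zfp280d circle passed the read filter through its wild-type reads alone. At an unadjusted p under 0.05, 9 of the 119 were higher and 15 lower, and DESeq2 called 2 and 4. The matching counts over all circRNAs are not given here, so neither shows anything particular to Zfp circles. SRPBM scaling gave 0 and 70 (58.8%, against 54.3% of all circRNAs). With each library left out in turn these counts changed, and the matching counts over all circRNAs are not given here. For P13 against P12, 0 of 119 rose and 0 fell (0.0114% each of all), with 2 and 5 at an unadjusted edgeR p under 0.05 and 0 by DESeq2. The matching unadjusted counts over all circRNAs are not given here either.

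The circles that fell included the main ones of Zfp516, Zfp385b and Zfp536. That of Zfp516 (chromosome 18, 82955524 to 82957449, exon class, in the tables' coordinates) was covered by 732 and 739 reads in wild type against 180 and 209 in the deletion libraries (log2 -0.77 ± 0.14, adjusted p 0.00196, edgeR's quasi-likelihood test). A smaller Zfp516 circle (82986744 to 82988198) had 108 and 49 against 23 and 7 (-1.28), and it did not pass without wild type P12 (adjusted p 0.699) or without deletion P13 (0.448). The most abundant Zfp circle of all, from Zfp385b (chromosome 2, 77719451 to 77720699), had 1462 and 1615 reads against 463 and 583 (-0.41 ± 0.12, adjusted p 0.0398). It did not pass without deletion P12 (adjusted p 0.192).

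Zfp536 gave 2 circles that fell. That at chromosome 7, 37567814 to 37569991, had 267 and 170 reads against 35 and 35 (log2 -1.46 ± 0.23, adjusted p 6.16e-04, edgeR's quasi-likelihood test). That at 37479281 to 37480849 had 246 and 160 against 60 and 35 (-0.96), and it did not pass without wild type P12 (adjusted p 0.289) or deletion P13 (0.223), nor by DESeq2 (0.0574). A Zfp280d circle (chromosome 9, 72307951 to 72312760) had 38 and 60 reads in wild type and was unlisted in both deletion libraries, at least 5.73-fold lower at P12 and 8.97-fold at P13 against 3 reads. It passed the read filter only through wild type, where it was high and the libraries were larger, so its call is weak support. The tables list circles from 2 reads up, so that an unlisted circle can still have had fewer.

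The circles that rose came from Zfp638, Zfp827, Zfp426, Zfp385b and Zfp790. The Zfp638 circle (chromosome 6, 83954711 to 83957592, exon class) was covered by 101 and 92 reads in wild type against 146 and 102 in the deletion libraries, which held fewer reads in all (log2 1.49 ± 0.20, adjusted p 1.29e-04 by edgeR's quasi-likelihood test and 1.01e-04 by DESeq2). It was at 0.04 on the SRPBM scale. The Zfp426 circle (chromosome 9, 20473028 to 20476478) had 152 and 153 against 106 and 128 (0.76), and the Zfp790 circle (chromosome 7, 29822980 to 29824953) 39 and 35 against 46 and 29 (1.14). Neither of the latter pair passed DESeq2 (adjusted p 0.0866 and 0.21), and each failed edgeR's test in some sets of 3 libraries. Without wild type P12 their adjusted p were 0.0886 and 0.0848, without wild type P13 0.254 and 0.257, and Zfp790 had 0.338 without deletion P12.

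The share of a circle among the reads of its host does not depend on library scaling. For 4 of the 11 called circles (in Zfp638, Zfp827, Zfp385b and Zfp280d) the 95% intervals of this share separated the genotypes, and for the other 7, the main circles of Zfp516 (82.3%, 90.8%, 86.5% and 94.1%) and Zfp385b (84.0%, 86.5%, 85.1% and 87.5%) among them, intervals overlapped. The 11 were called from the same reads, the Zfp280d circle through wild type alone, so this count is no separate support. The matching count over all circRNAs was not computed. The shares given next were chosen after their values were seen and carry no test. In Zfp638 the called circle made up 27.7% of the host's junction reads in the P12 wild-type library (23.1% to 32.6%, 95% exact binomial), 24.8% in wild type at P13 (20.5% to 29.5%), 69.9% with the deletion at P12 (63.1% to 76.0%) and 44.5% with the deletion at P13 (38.0% to 51.2%). The deletion libraries thus did not overlap each other either. The other 6 tested Zfp638 circles did not pass, and the lowest had a log2 fold change of -0.87. Set against the most abundant circle from the same start alone, which had at most 11 reads a library, its share was 92.7%, 89.3%, 100% and 93.6%.

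In Zfp827 and Zfp385b the circle that rose shared its start with a longer and more abundant circle of the host. In Zfp827 the circle at chromosome 8, 79118175 to 79120540, had 120 and 103 reads in wild type against 93 and 111 in the deletion libraries (log2 1.02 ± 0.21, adjusted p 0.00423, edgeR's quasi-likelihood test). The circle from the same start to 79136663, the main one of this gene and the most abundant of 7 that share a start or an end with the short one, had 996 and 1142 against 361 and 358 (-0.42, adjusted p 0.0513). Of the reads of the 2, the short circle took 10.8% in wild type P12 (9.0% to 12.7%), 8.27% in wild type at P13 (6.80% to 9.94%), 20.5% with the deletion at P12 (16.9% to 24.5%) and 23.7% with the deletion at P13 (19.9% to 27.8%). No interval of one genotype overlapped one of the other, while Zfp827 as a host stood at -0.13 and did not pass (adjusted p 0.489). The short circle did not pass without wild type P13 (adjusted p 0.136) and was at -0.44 on the SRPBM scale.

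In Zfp385b the short circle (chromosome 2, 77476735 to 77483823, intron class) had 14 and 6 reads in wild type against 20 and 19 in the deletion libraries (log2 2.14 ± 0.53, adjusted p 0.0156, edgeR's quasi-likelihood test). It did not pass without wild type P13 (adjusted p 0.169). Its partner from the same start to 77503682 had 100 and 108 against 26 and 25 (-0.87, adjusted p 0.052). The short circle took 12.3% and 5.26% of the reads of the 2 in wild type against 43.5% and 43.2% in the deletion libraries. The deletion intervals (28.9% to 58.9% and 28.3% to 59.0%) lay above those of wild type (6.88% to 19.7% and 1.96% to 11.1%). In Zfp426, by contrast, the called circle took 76.8%, 76.5%, 80.9% and 80.5% of the host's reads, with overlapping intervals.

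**Figure D4:**
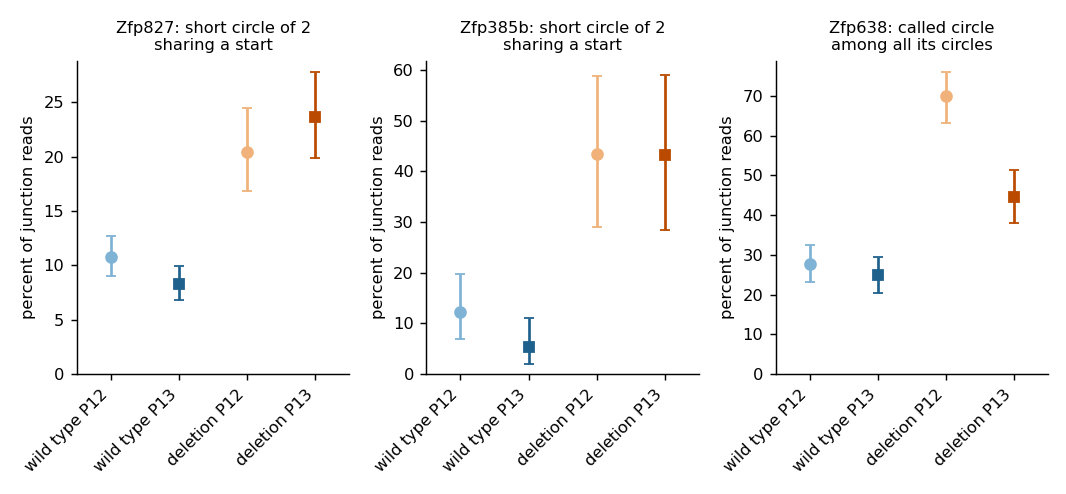
Share of junction reads in percent for the short circle among 2 circles from the same start in Zfp827 (left) and Zfp385b (middle), and for the called circle among all circles of Zfp638 (right), a different denominator; each point is 1 library and bars are 95% exact binomial intervals. In all 3 panels both deletion libraries lie above both wild-type libraries, with the Zfp638 circle at 69.9% in deletion P12.

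The junction ratio compares the circle with non-circular reads at the same splice positions, and is also free of library scaling. Each junction read is weighted by 2, and the ratio is this weighted number divided by its sum with the non-junction reads. Linear RNA had been depleted before sequencing, per the labels' protocols, so that it is no measure of the circular share in the tissue. Over 33 Zfp circRNAs with at least 20 reads in every library the median ratio was 0.694, 0.643, 0.640 and 0.745 in the wild-type libraries (P12, P13) and the deletion libraries (P12, P13), against 0.624, 0.634, 0.629 and 0.627 over 2193 circRNAs of all hosts. The highest median ratios were those of the main circles of Zfp385b (0.932, 0.936, 0.931 and 0.937) and Zfp148 (chromosome 16, 33421321 to 33434974; 0.920, 0.933, 0.913 and 0.916), followed by Zfp109 (chromosome 7, 24228048 to 24229840; 0.938, 0.816, 0.889 and 0.947). The lowest were a Zfp827 circle (79091833 to 79120540; 0.108, 0.095, 0.098 and 0.120), one from Zfp148 (33434626 to 33468183; median 0.129) and one from Zfp644 (chromosome 5, 106619540 to 106638635; median 0.149).

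Both deletion libraries lay below both wild-type libraries in the ratio of 9 of the 33 (27.3%), against 24.7% of all, and above them in 8 (24.2%), against 29.5%. The ratio contains the junction reads by which circles were called, so it is no separate support for those calls. Circles that fell in reads were among those below: Zfp536 (37567814 to 37569991; 0.657 and 0.532 in wild type, 0.391 and 0.402 with the deletion) and the main Zfp516 circle (0.849 and 0.824 against 0.729 and 0.759). The main Zfp644 circle (106618071 to 106619642) had 0.838 and 0.846 against 0.737 and 0.751, though its reads did not pass (log2 -0.42, adjusted p 0.064, edgeR's quasi-likelihood test). In the Zfp638 circle the ratio was 0.694 and 0.568 against 0.885 and 0.823, and in the short Zfp827 circle 0.148 and 0.118 against 0.246 and 0.291. The main Zfp385b circle, which fell in reads, had ratios of 0.931 to 0.937 in every library.

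**Figure D5:**
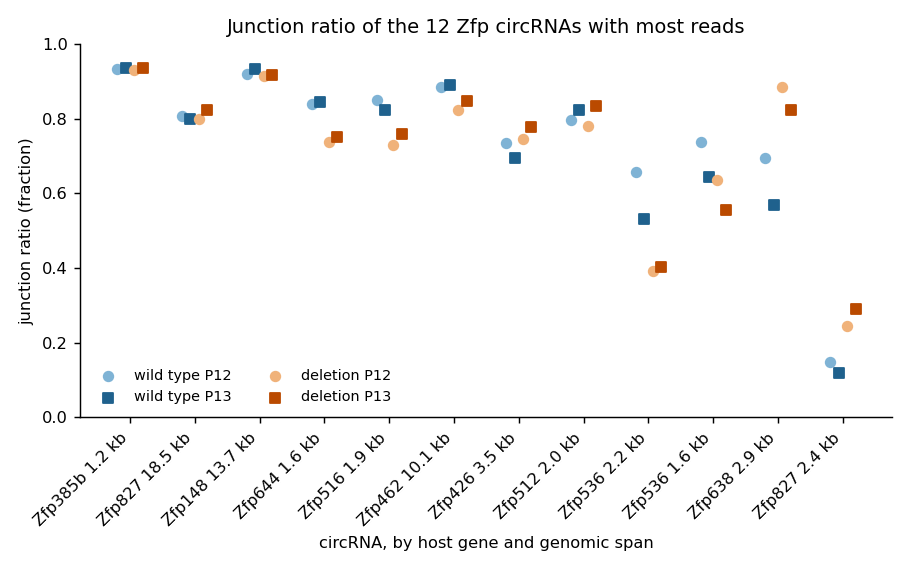
Junction ratio (a fraction from 0 to 1) of the 12 Zfp circRNAs with most reads, named by host and genomic span; each point is 1 library, colours and shapes as labelled, with no error bars. The main Zfp385b circle lies between 0.931 and 0.937 in every library, whereas both deletion libraries lie below wild type for Zfp644 and Zfp516 and above it for Zfp638.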

How the data were processed

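CircRNA tables of 4 ocular libraries were analysed, 1 per genotype and day. The authors deposited, per the file headers, whole-number counts of junction and non-junction reads per circRNA in the layout of the caller CIRI, the junction ratio as a fraction, and SRPBM, a signal in which the deposited junction reads are divided by 1 constant per library (9.14, 9.10, 10.6 and 12.1 reads in wild type at P12 and P13 and with the deletion at P12 and P13). The submitters' processing notes list BWA and DESeq2, without stated versions or roles. The sources used here do not give the build, the annotation or what the SRPBM constant counts, and coordinates are as deposited. Each table lists circRNAs with at least 2 junction reads. The labels describe no molecular identifiers.

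Host identifiers were matched to a RefSeq table of assembly GRCm38.p6, used for names only (99.9% of single-host circRNAs matched in each library). Counts were summed per host and tested with edgeR 4.0.16 (TMM, robust glmQLFit, genotype and day additive, at least 10 reads in at least 2 libraries, adjusted p 0.05), with SE from the test statistic. Effective library sizes were 623890, 711918, 270431 and 306484 for hosts. DESeq2 1.42.0, RLE factors, SRPBM scaling, other filters, a single-factor model and leaving out each library were alternatives. Ratios of 2 libraries have exact conditional 95% intervals (SciPy 1.17.1). The fits were tested on simulated data.

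Named hosts are the 12 with most reads, hosts and circRNAs past the threshold (up to 10 in each direction), the 5 largest and smallest called ratios per pair, the 3 highest and lowest junction ratios, and examples from role lists (those with most reads, or the 3 with the smallest adjusted p in other families). Members and lists were chosen with earlier results of these data known.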

Additional observations from a re-analysis of the deposited data

Results flagged for a closer look

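Zfp804b differed between the days in the direction of its genotype ratio. It had 31 reads in wild type P12 and 0 listed in deletion P12, 4.48-fold lower if 3 reads are taken as the floor (the 95% interval of the ratio ended at 0.292), but 18 in wild type P13 and 24 in deletion P13, a ratio of 3.10. The difference between the days was not tested, since each group held 1 library.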

How the results depend on the processing

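No paired analysis was possible because each group held 1 library and the labels carry no replicate numbers; the day was a term of the model instead, and the single-factor model below leaves it out. SRPBM scaling changed the results most: Zfp hosts higher and lower in the deletion became 0 and 35 (from 4 and 3) and circRNAs 0 and 70 (from 5 and 6). Pairs became 0 and 31 at P12 (from 5 and 2) and 0 and 36 at P13 (from 3 and 2), and 5 were higher at P13 in wild type (from 1). On that scale the summed ratios became 0.326 at P12, 0.309 at P13 and 1.05 for the day in wild type, and the log2 changes of Zfp426 (-0.77), Zfp62 (-0.39), Zfp638 (-1.06) and Zfp790 (-0.36) and of the circles of Zfp790 (-0.31), short Zfp827 (-0.44) and Zfp426 (-0.70) turned negative. The cause was not tested. DESeq2 called 1 host and 2 circRNAs higher. With no filter 2 hosts and 3 circRNAs were higher and 10 circRNAs lower. With 20 reads in every library 6 hosts were lower, with fewer hosts tested. A single-factor model gave 2 hosts higher and 3 circRNAs lower. Leaving out 1 library gave 1 to 5 hosts higher, 1 to 7 lower, 1 to 6 circRNAs higher, 5 to 13 lower and, for the day, 0 to 1 circRNA higher. With at least 50 reads a pair, the genotype had 2 higher and 0 lower at P12 and 1 and 1 at P13, and the day in the deletion 1 and 0. Total reads as library size gave summed ratios of 0.837 and 0.908, and circRNAs listed in all 4 libraries 0.913 at P12. RLE factors changed no call of a named host or circle. Depth limits the 61 Zfp hosts and 317 circRNAs that were not tested.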
